A study of Arabidopsis thaliana with 9 samples.

Results

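Of 32399 nuclear loci counted in leaves of Arabidopsis thaliana, 5158 had nascent RNA counts but not a single count of steady-state nuclear RNA. The 78 members described here are those of them with more nascent counts. Each of the 78 had 0 counts in all 3 nuclear RNA (RNA) libraries. Each also had a summed count of at least 100 over the 3 nuclear run-on (NRO) libraries. AT4G20780 and AT5G18060 met both conditions too and were left out by the rule. The members were thus chosen by their NRO and RNA counts. Leaves came from plants 3 weeks of age, kept at 22 °C under a day of 16 h light and a night of 8 h. Nuclear run-on lets polymerases already engaged on the DNA of purified nuclei elongate with biotin-labelled UTP, after which streptavidin beads pull out the labelled transcripts. The genotypes were labelled nrpe1-11, a mutant of the largest subunit of Pol V, nrpd1-3, a mutant of the largest subunit of Pol IV, and Col-0, the wild-type accession. Each genotype had 1 NRO and 1 RNA library, so the groups have no replicates, no replicate test is possible and every interval below covers counting error only. The labels do not say how many plants made up a library.

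Nascent and steady-state RNA differ because RNA made in the nucleus is processed, exported and degraded at rates that differ between transcripts. Primary microRNA transcripts are cut by DICER-LIKE1 in the nucleus, many auxin-induced and stress-induced messages are known to be short-lived, and RNA without a poly(A) tail is not captured by oligo(dT). Pol IV and Pol V are plant polymerases derived from Pol II, and their noncoding transcripts guide DNA methylation, which in leaves keeps transposons and some genes silent. Both assays used the same stranded mRNA library kit, per the labels, whose protocol for the RNA samples mentions the beads as well.

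NRO libraries held 2687149 to 8185846 counts in genes and RNA libraries 386011 to 709905, so the NRO total was 11.6 times the RNA total. Set aside as not uniquely aligned were 8511333 to 14406062 in NRO and 5226359 to 13094136 in RNA, and their part in the 0 RNA counts was not tested. NRO of Col-0 was the shallowest NRO library and RNA of Col-0 the deepest RNA library. Mesophyll markers, such as RBCS1A and LHCB2.1, had 63705 NRO and 6032 RNA counts over 5 loci. Counts summed over 7 loci of guard cells and their lineage were 256 in NRO and 14 in RNA, with MUTE at 0 in all libraries. The 3 root markers had 775 and 104 counts, nearly all from PYK10, whose part in the results was not tested. NRPD1A (AT1G63020), the Pol IV subunit named in nrpd1-3, had 19, 94 and 9 NRO counts in nrpe1-11, nrpd1-3 and Col-0, and NRPD1B (AT2G40030), the Pol V subunit named in nrpe1-11, had 82, 81 and 24. Neither count shows the mutation its label names, since counts over a whole gene do not show an insertion, so genotypes below are those of the libraries labelled that way.

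The members were low to moderate in NRO. Their summed NRO counts ran between 100 and 620 with a median of 138.5, and 47 of 78 lay under 150. Of all 12076 loci with a summed NRO count of at least 100, members made up 0.646%. Among loci with 100 to under 150 NRO counts, 47 of 2078 (2.26%) had 0 RNA counts, 75 had 1 and 128 had 2, and the median was 7. Among loci with 300 to 620 NRO counts, 3 of 2901 (0.103%) had 0 RNA counts, and the median was 26. Loci without RNA counts thus lay at the low end of a continuous range, and they became rarer as the NRO count grew. Had each locus held the same share of the RNA total as of the NRO total in each genotype, the members would have had between 5.82 and 50.7 RNA counts over the 3 libraries (median 10.2). For 41 of 78 that number was at least 10. A count of 0 allows up to 3 counts, which over the 3 RNA libraries is 1.89 CPM (counts of a locus per 1e6 counts of its library). Pooled NRO levels of 5.44 to 33.7 CPM were therefore at least 2.88 to 17.9 times the pooled RNA level, with a median bound of 3.99. Pooling does not match genotypes, since Col-0 held 14.6% of the NRO counts but was the deepest RNA library. The bounds thus hold for pooled levels and may be lower with genotypes matched. The NRO and RNA counts chose the members, so all these values are a description and carry no test.

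**Figure D1:**
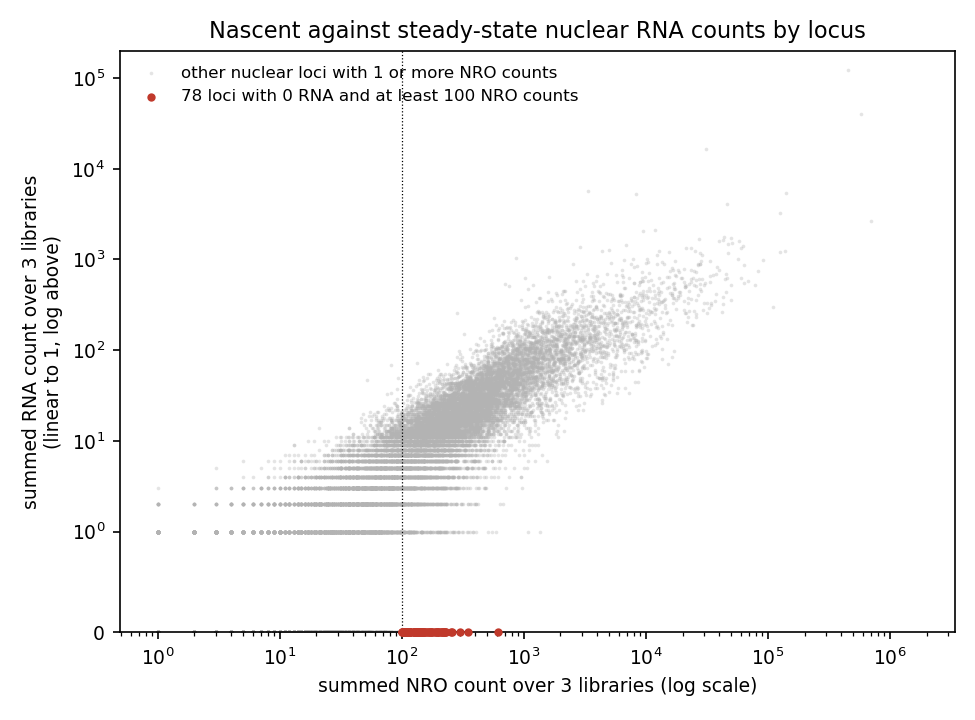
Summed RNA count (vertical axis, linear to 1 and logarithmic above) against summed NRO count (horizontal axis, logarithmic) for each nuclear locus with 1 or more NRO counts. The 78 loci in red lie on the line of 0 RNA counts between 100 and 620 NRO counts, and the dotted line marks 100.

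Loci just outside the rule show how narrow it is. AT1G66520 (pde194), AT2G46390 (SDH8) and AT5G53895 had 99 NRO counts and 0 RNA counts, and AT1G21520 had 97. AT3G20362 had 527, 674 and 163 NRO counts in nrpe1-11, nrpd1-3 and Col-0 and a single RNA count, where an equal share would have given 109. AT5G42053 had 475, 584 and 25 NRO counts and a single RNA count, against 65.4 at an equal share. A single RNA count keeps both of these out. At the inner edge, AT2G05280 had 100 NRO counts and AT5G47928 had 103, with AT1G15300 (CYTOSLEEPER) and AT3G56320 between them.

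By annotation, 63 of the 78 loci are protein-coding, 4 are microRNA genes, 4 are pseudogenes, 2 are lncRNA genes and 1 is another noncoding RNA gene. The NCBI table of assembly TAIR10.1 has no entry for the remaining 4. As a share of the loci with at least 100 NRO counts in its class, that is 0.533% of 11809 protein-coding loci, 22.2% of 18 microRNA genes, 4.65% of 86 pseudogenes and 2.56% of 78 lncRNA genes. The other noncoding RNA gene is 2.63% of 38 in its class, and the 4 loci without an entry are 30.8% of 13. None of 18 snoRNA genes or 9 snRNA genes with at least 100 NRO counts lacked RNA counts. No test was made of these shares. The table gives a symbol for 26 members. The others go by their identifiers, apart from AT1G76640, which is called by its synonym CML39. They lie on all 5 chromosomes, with 21, 14, 11, 8 and 24 on chromosomes 1 to 5.

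The 4 microRNA genes are MIR856 (AT1G32992), MIR831 (AT2G24103), MIR168b (AT5G45307) and MIR158a (AT3G10745). miR168 is known to target the message of AGO1, the main slicer of the microRNA pathway. MIR168b had 58, 77 and 1 NRO counts in nrpe1-11, nrpd1-3 and Col-0, which are 6.22, 8.74 and 0.497 CPM after scaling by trimmed mean of M values (TMM). MIR158a had 59, 74 and 1 counts, or 6.33, 8.40 and 0.497 CPM. Both were near the limit of detection in Col-0, where 3 counts equal 1.49 CPM. MIR831 had 61, 72 and 4 counts and MIR856 had 82, 75 and 7, with Col-0 again lowest. Over the 178 microRNA genes in the files, 18 reached 100 NRO counts, and their median was 255 NRO and 3 RNA counts. The other copy of miR168, MIR168a (AT4G19395), had 25, 26 and 5 NRO counts and no RNA count, under the minimum. MIR398c, the most abundant of the other microRNA genes in NRO, had 3233, 2828 and 186 NRO counts and 62, 30 and 17 RNA counts. microRNA genes that share near-identical sequence may be under-counted, since reads aligning more than once were assigned to no gene.

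Among auxin-induced genes, SAUR22 (AT5G18050), of the small auxin-up RNA family that promotes cell expansion, had 107, 77 and 5 NRO counts in nrpe1-11, nrpd1-3 and Col-0, or 11.5, 8.74 and 2.49 CPM. It is next to AT5G18060 (SAUR23), a locus the rule leaves out, which had 186, 118 and 4. Others of this cluster had few RNA counts but not 0: SAUR24 (AT5G18080) had 362 NRO and 2 RNA counts, SAUR19 (AT5G18010) 129 and 2, and SAUR20 (AT5G18020) 75 and 1. Reads shared by these similar genes may have been set aside, since reads aligning more than once were assigned to no gene. Of 18 SAUR genes with at least 100 NRO counts, 1 was a member, beside 0.646% of all such loci. Over 80 SAUR genes there were 12065 NRO and 155 RNA counts, a ratio of 77.8, where the totals of all loci gave 11.6. AT2G35290 and AT3G12830 held 3463 and 2670 of these NRO counts. Most other gene lists also lay above 11.6, such as ERF and DREB factors (97.4), calmodulin-like and touch genes (67.5) and MYB factors (55.0). Mesophyll and root markers lay below it (10.6 and 7.45).

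Of the loci with at least 100 NRO counts in their lists, 1 of 30 ERF and DREB factors, 1 of 11 calmodulin-like and touch genes and 1 of 46 receptor-like kinases were members, beside 0.646% of all such loci, with no test made. These lists were matched by symbol or synonym and also hold other genes, such as NAP57 (AT3G57150) among the ERF and DREB factors. A second calmodulin-like gene, AT4G20780, is left out by the rule. DREB2B (AT3G11020), a transcription factor of the dehydration response, had 131, 77 and 19 NRO counts in nrpe1-11, nrpd1-3 and Col-0, or 14.1, 8.74 and 9.45 CPM. Its levels differed by less than 2-fold between any pair of libraries. CML39 (AT1G76640), a calmodulin-like gene, had 57, 71 and 31 counts, or 6.11, 8.06 and 15.4 CPM, with Col-0 highest. Its neighbour CML38 (AT1G76650) had 21642 NRO and 205 RNA counts. WAK3 (AT1G21240), a wall-associated kinase, had 74, 45 and 16 NRO counts, or 7.94, 5.11 and 7.96 CPM. Of 28 fixed early genes of wounding, cold, touch and jasmonate, none was without RNA counts. Together these 28 had 544266 NRO and 10932 RNA counts, a ratio of 49.8, and their median was 9450.5 NRO and 97.5 RNA counts. Neither did WRKY (33 loci with at least 100 NRO counts), MYB (34), NAC (38) or cytochrome P450 genes (100) give a member.

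Further members have known roles in transcription, chromatin or recombination, though no list other than histones was counted. NRPD7 (AT3G22900), a small subunit of Pol IV and a counterpart of RPB7 of Pol II, had 86, 113 and 17 NRO counts in nrpe1-11, nrpd1-3 and Col-0, or 9.23, 12.8 and 8.46 CPM. RPB5C (AT5G57980), a relative of the fifth subunit of Pol II, had 82, 106 and 6 counts, or 8.80, 12.03 and 2.98 CPM. HTR11 (AT5G65350), a histone H3 gene, had 68, 81 and 7. Many histone messages are made in dividing cells, whose 3 markers had 206 NRO and 9 RNA counts. Of 13 genes with at least 100 NRO counts on the histone list, HTR11 was the single member. The median of the 13 was 259 NRO and 3 RNA counts. The list was matched by symbol, synonym or identifier and may miss histone genes. Members outside it may thus be histone genes too. SSN2 (AT4G33925), a factor of homologous recombination, had 117, 120 and 17 NRO counts, and the RecA relative RECA2 (AT2G19490) had 66, 43 and 7. SSN2 had levels of 12.6, 13.6 and 8.46 CPM, within 2-fold of each other. RPB5C, RECA2 and, below, AGC1.5, PMEI1, DAZ1, AT5G42655 and GDU3 were chosen after their values were seen.

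The highest member was AT3G41762, with 315, 233 and 72 NRO counts in nrpe1-11, nrpd1-3 and Col-0, or 33.8, 26.4 and 35.8 CPM. C2 (AT3G17980), a C2-domain gene, followed with 165, 179 and 8 counts, or 17.7, 20.3 and 3.98 CPM. AT3G18170 had 103, 121 and 74 counts, or 11.0, 13.7 and 36.8 CPM, and AT4G26701 had 93, 128 and 37. AT3G18170 was highest in Col-0 and C2 lowest there, so abundance did not go with a common direction. AT1G07330 had 113, 111 and 6 counts. A few members are best known from pollen: AGC1.5 (AT3G12690), a kinase of pollen tube growth, had 75, 55 and 13 NRO counts, the pectin methylesterase inhibitor PMEI1 (AT1G48020) had 57, 54 and 5, and DAZ1 (AT2G17180), a zinc-finger factor of the male germ line, had 56, 49 and 5. None of these 3 met the size rule given below in any comparison. No list of pollen genes was tested.

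**Figure D2:**
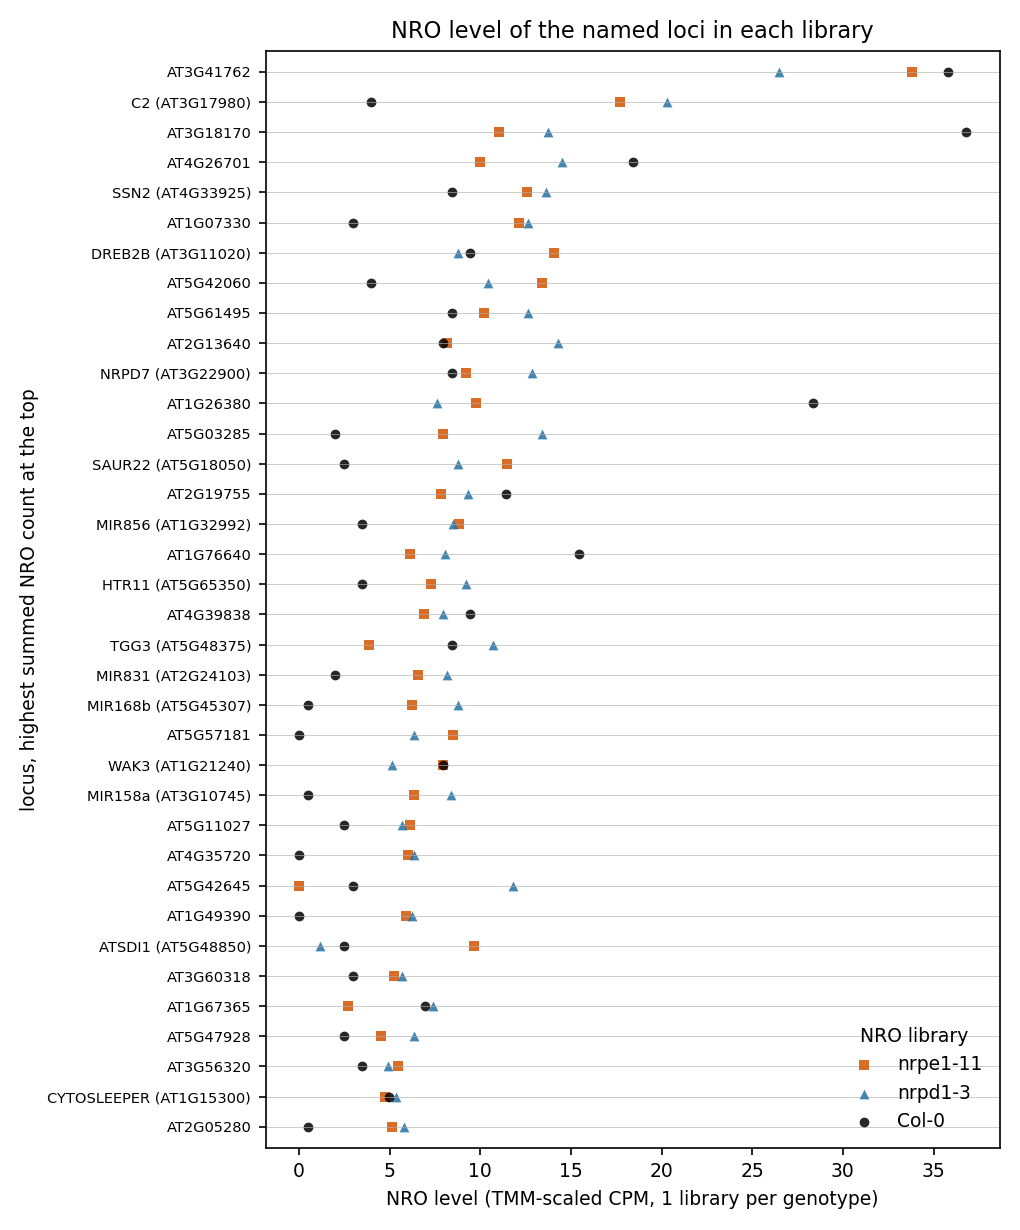
NRO level (TMM-scaled CPM, horizontal axis) of the 36 loci that the naming rule selects, ordered by summed NRO count, with 1 point per library. Col-0 lies lowest for C2, MIR168b and MIR158a and highest for AT3G18170, AT1G26380 and CML39 (AT1G76640).

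The other noncoding members and those without a table entry were as follows. The pseudogene AT2G19755 had 73, 82 and 23 NRO counts in nrpe1-11, nrpd1-3 and Col-0, CYTOSLEEPER, a transposase-like pseudogene, had 44, 47 and 10, and the lncRNA gene AT4G39838 had 64, 70 and 19. None of these met the size rule given below, with log2 ratios to Col-0 between −0.53 and 0.10. Of the loci without an entry in the table, AT5G11027 had 57, 50 and 5 counts, AT3G60318 had 49, 50 and 6 and AT5G47928 had 42, 56 and 5. Over all 78 loci, the NRO level ran between 0 and 33.8 CPM in nrpe1-11 (median 7.40), between 1.14 and 26.4 CPM in nrpd1-3 (7.27) and between 0 and 36.8 CPM in Col-0 (4.48). Col-0 was the lowest of the 3 libraries for 52 loci and the highest for 12.

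Comparisons between genotypes used a size rule, an absolute log2 ratio of 1 or more together with an exact 95% conditional interval of the ratio that excludes 1. It was applied to all 16083 loci with at least 20 counts in 1 or more NRO libraries, after TMM scaling. The comparisons of nrpd1-3 and of nrpe1-11 with Col-0 share the Col-0 library.

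In NRO of nrpd1-3 against Col-0, 25 of 78 members were higher and 2 lower, beside 9.31% higher and 6.99% lower of all loci tested. The members' median log2 ratio was 0.77, and that of all loci 0.03. In NRO of nrpe1-11 against Col-0, 26 were higher and 6 lower, beside 12.1% and 11.1% of all loci, and the medians were 0.67 and 0.04. Neither count is independent of the rule. Col-0 holds 14.6% of the NRO counts over all loci and 7.58% over the members, so the minimum of 100 is met mostly through the mutant libraries, while the condition of 0 RNA counts is strictest in Col-0, the deepest RNA library. When a lower NRO minimum was set on Col-0 alone, an alternative chosen after seeing the data, 29 loci were chosen, 20 of them members. No member had more than 74 NRO counts in Col-0, so this minimum lay under 100. Of the 27 loci tested, 0 were higher, 7 were lower in nrpd1-3 and 10 in nrpe1-11, and the medians were −0.33 and −0.53. That set favours loci high in Col-0, so its direction is not independent of its rule either. With libraries weighted equally, also chosen after seeing the data, 18 and 19 of 62 loci were higher and 3 and 6 lower. The medians of that set were 0.55 in both. The direction of the group as a whole thus differed between ways of choosing its loci, and nothing is read from these counts. Scaling by library totals, which moved the median of all loci to higher log2 ratios by 0.50 for nrpd1-3 and 0.70 for nrpe1-11, gave 45 members higher and 1 lower in nrpd1-3, and in nrpe1-11 it gave 51 higher and 1 lower. With that scaling, 24.0% of all loci were higher and 2.28% lower in nrpd1-3, and 35.3% were higher and 3.21% lower in nrpe1-11. The 8440 other loci with 100 to 620 NRO counts had medians of −0.03 and 0.03 after TMM scaling.

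**Figure D3:**
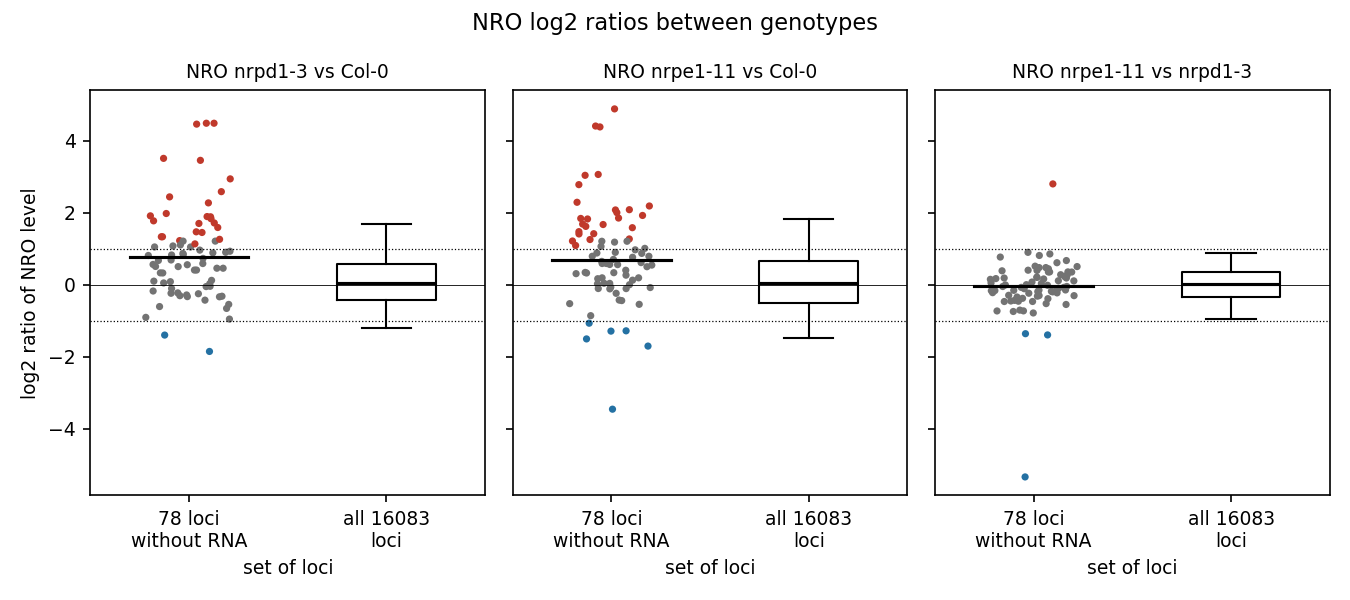
NRO log2 ratio (vertical axis) of the 78 loci (points, the black bar is their median) and of all 16083 loci tested (box from the 25th to the 75th percentile with the median, whiskers from the 5th to the 95th). Red and blue points met the size rule as higher and lower, dotted lines mark a log2 ratio of 1 in size, and the medians of the 78 loci are 0.77, 0.67 and −0.05.

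The loci at the top of both comparisons with Col-0 were at or near 0 there. AT5G57181 had 79 and 56 NRO counts in nrpe1-11 and nrpd1-3 and 0 in Col-0. Against a floor of 3 Col-0 counts, it was at least 5.68-fold higher in nrpe1-11 and at least 4.26-fold higher in nrpd1-3. AT4G35720 had 56, 56 and 0 counts in nrpe1-11, nrpd1-3 and Col-0, at least 4.03-fold and 4.26-fold higher. AT1G49390 had 55, 55 and 0, at least 3.95-fold and 4.18-fold higher. Apart from these 3, all members had a count in Col-0. The pseudogene AT2G05280 had 48, 51 and 1 counts.

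For MIR168b the ratio was 12.5 in nrpe1-11 against Col-0 (counting interval 2.16 to 502) and 17.6 in nrpd1-3 against Col-0 (3.06 to 703). For MIR158a it was 12.7 (2.20 to 511) and 16.9 (2.94 to 676). Since Col-0 had a single count of each, the upper bounds say little. MIR831 was 3.29 and 4.11 times its Col-0 level and MIR856 2.53 and 2.44 times, and all 4 microRNA genes met the size rule as higher in both, beside 9.31% of all loci in nrpd1-3 and 12.1% in nrpe1-11. Of the 14 other microRNA genes with at least 100 NRO counts, 9 were higher in nrpe1-11 and 7 in nrpd1-3, and 0 lower in either. The minimum of 100 was met mostly through the mutant libraries for these 4 loci, so their direction is not independent of the rule. AT5G03285, the noncoding RNA gene, had 74, 118 and 4 counts and log2 ratios of 1.85 in nrpe1-11 and 2.58 in nrpd1-3 against Col-0.

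With more counts behind them, C2 was 4.45 times its Col-0 level in nrpe1-11 (interval 2.21 to 10.5) and 5.11 times in nrpd1-3 (2.54 to 12.01). AT1G07330 was 4.06 and 4.22 times its Col-0 level. SAUR22 had log2 ratios of 2.08 in nrpe1-11 and 1.70 in nrpd1-3, and RPB5C of 1.47 and 1.91. AT5G42060 had log2 ratios of 1.68 and 1.33, and its neighbour is AT5G42053, the locus with 1084 NRO counts and 1 RNA count. NRPD7 was 1.09 times its Col-0 level in nrpe1-11 and 1.52 times in nrpd1-3 (intervals 0.643 to 1.96 and 0.907 to 2.70), so no difference was detectable at this depth. RNA of the members held no count in any genotype, so nothing in steady-state RNA bears on these differences.

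Lower in both mutants were AT3G18170 and AT1G26380. AT3G18170 was at 0.300 times its Col-0 level in nrpe1-11 (interval 0.221 to 0.410) and at 0.373 times in nrpd1-3 (0.277 to 0.505). AT1G26380 had 91, 67 and 57 NRO counts in nrpe1-11, nrpd1-3 and Col-0, or 9.76, 7.61 and 28.4 CPM. Its ratios to Col-0 were 0.344 (0.245 to 0.488) and 0.268 (0.186 to 0.389). CML39 met the rule in nrpe1-11 with a log2 ratio of −1.29 and missed it in nrpd1-3 with −0.91, and these ratios were not tested against each other. With library totals, AT3G18170 missed the rule in nrpe1-11 and nrpd1-3 (log2 ratios −0.99 and −0.88), as did AT1G26380 (−0.79) and CML39 (−0.58) in nrpe1-11.

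In NRO of nrpe1-11 against nrpd1-3, 1 of 78 was higher and 3 lower, beside 3.35% and 4.66% of all loci tested, with a median log2 ratio of −0.05. Other loci with 100 to 620 NRO counts were higher in 1.69% and lower in 2.57%, so nothing is read from the members' counts. ATSDI1 (AT5G48850), a gene induced by sulphur deficiency, had 90, 10 and 5 counts in nrpe1-11, nrpd1-3 and Col-0, or 9.66, 1.14 and 2.49 CPM. It was 8.51 times higher in nrpe1-11 than in nrpd1-3 (interval 4.42 to 18.3), and 3.88 times higher in nrpe1-11 than in Col-0 (1.60 to 12.2). The pseudogene AT5G42645 had 0, 104 and 6 counts. Its level in nrpe1-11 was at most 0.0273 times that in nrpd1-3 and at most 0.108 times that in Col-0, with a floor of 3 counts, while nrpd1-3 was 3.96 times Col-0 (1.76 to 11.0). TGG3 (AT5G48375), of the myrosinase family that cleaves glucosinolates, had 36, 94 and 17 counts, and the lncRNA gene AT1G67365 had 25, 65 and 14. Their ratios between nrpe1-11 and nrpd1-3 were 0.362 (0.239 to 0.537) and 0.363 (0.220 to 0.585). TGG3 and AT1G67365 were also lower in nrpe1-11 than in Col-0, with log2 ratios of −1.07 and −1.29, which became −0.38 and −0.60, outside the rule, with library totals. In nrpd1-3 against Col-0 both missed the rule, with 0.33 and 0.08.

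The loci next to each member were examined because gene counts do not place reads within a locus. Order and overlap came from the TAIR10.1 table, which holds 74 of the 78 and was used without strand. For 59 of 74 (79.7%), a locus next to it had more NRO counts, and for 14 of 74 (18.9%) at least 10 times more. Since a low count is more easily exceeded, like levels were set side by side: for 100 to under 200 NRO counts the shares were 76.7% of 60 members and 62.4% of 3500 other loci for any higher neighbour, and 18.3% and 12.2% for a neighbour 10 times higher. Overlap with another annotated locus was found for 23 of 74 members (31.1%) and for 31.4% of 8433 other loci with 100 to 620 NRO counts. No test was made of these shares. Across the 71 members whose higher neighbour was tested, the log2 ratio of the member and that of its neighbour had a Pearson r of 0.429 in nrpe1-11 against Col-0 and 0.281 in nrpd1-3 against Col-0. Across 7250 other loci with 100 to 620 NRO counts, r was 0.160 and 0.119. All of these points come from the same libraries, and both comparisons share Col-0. Whether reads of a neighbour entered the members' counts was not tested.

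**Figure D4:**
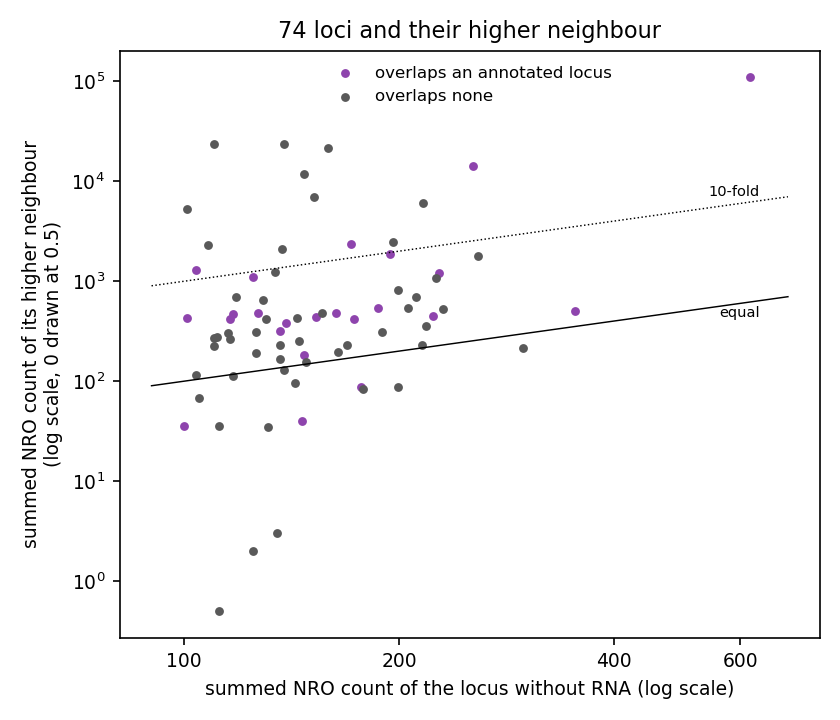
Summed NRO count of the higher of the loci next to each member (vertical axis, logarithmic, 0 drawn at 0.5) against the member's own summed NRO count (horizontal axis, logarithmic) for 74 loci. Points above the solid line have a neighbour with more counts (59 of 74), and 14 lie on or above the dotted line of 10-fold.

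The members with the most uneven neighbours include the following. AT3G41762 overlaps AT3G41761, which had 45055, 56744 and 7580 NRO counts in nrpe1-11, nrpd1-3 and Col-0 and 69, 112 and 122 RNA counts. AT5G42645 and AT5G42655 lie on either side of AOS (AT5G42650), the allene oxide synthase of jasmonate synthesis. AOS had 9521, 11574 and 2447 NRO counts and 106, 95 and 162 RNA counts. Its log2 ratios were −0.36 in nrpe1-11 against nrpd1-3, −0.25 in nrpe1-11 against Col-0 and 0.11 in nrpd1-3 against Col-0. AT5G42645 had −5.34, −3.46 and 1.88 in the same comparisons. AT5G42655 had 65, 69 and 4 NRO counts, with log2 ratios of −0.16, 1.67 and 1.83. CML39 lies next to CML38, described above. TGG3 lies next to BIR1 (AT5G48380), a receptor kinase of defence with 11702 NRO counts, and NRPD7 next to APS1 (AT3G22890), an ATP sulfurylase with 6104. CYTOSLEEPER lies next to AT1G15290 with 5264 NRO counts, and AT2G20970, chosen after its values were seen, next to pEARLI4 (AT2G20960) with 6998. SSN2 overlaps AT4G33920, which had 14293 NRO counts and log2 ratios of −0.35 in nrpe1-11 against nrpd1-3, −0.20 in nrpe1-11 against Col-0 and 0.15 in nrpd1-3 against Col-0. At the other end, AT4G35720 stood between loci with 0 NRO counts in all 3 libraries, WAK3 between WAK5 with 0 and AT1G21245 with 3, and GDU3 (AT5G57685), which promotes amino acid export, between loci with 2 and 0.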

How the data were processed

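Each deposited file gives raw read counts per locus for 1 library, made by the authors with HTSeq after Trimmomatic 0.33 and TopHat2 2.1.0 on TAIR10, per the submitters' processing notes. HTSeq's version, strand setting and counting mode are not given in the sources used here; overlapping and antisense genes may not be told apart. Files held 32678 loci and 5 summary lines, which stayed out of totals. Reads outside genes were 18.6% to 25.8% of uniquely aligned reads in NRO and 28.6% to 31.0% in RNA. All 279 organelle loci had 0 counts. The 3 chromatin immunoprecipitation samples were not analysed here.

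NRO counts were scaled by TMM in edgeR 4.0.16 (R 4.3.3) after a filter of 20 counts in 1 library, log2 CPM took a prior count of 2, and intervals were exact conditional binomial (Clopper-Pearson, 95%). PCR reads are not independent molecules, so intervals and floors of 3 counts cover counting error only. The size rule was tested on simulated data. The additive model over both assays was not used, because members have 0 RNA counts. Alternatives included DESeq2 1.42.0 size factors.

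Named members were the 12 highest, the 6 highest and lowest that met the size rule in each comparison, up to 6 per gene list, up to 4 per noncoding class and the 4 lowest, 36 loci in all. Members and lists were chosen with earlier results of these data known. Names came from the TAIR10.1 table, which matched 31912 loci. Sequences of these loci were not used here.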

Additional observations from a re-analysis of the deposited data

Results flagged for a closer look

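The pseudogene AT5G42645 was higher in NRO of nrpd1-3 than in Col-0 (log2 ratio 1.88, 104 and 6 counts) and lower in NRO of nrpe1-11 than in Col-0 (log2 ratio −3.46, 0 and 6 counts). It stands here because the mutants moved in opposite ways from the same Col-0 library. With 1 library each, the difference was not tested.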

How the results depend on the processing

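No paired analysis was possible because the labels give no replicate numbers and each group has 1 library. The rule gave 78 members, 298 with a minimum of 50 NRO counts, 14 with 200, 212 with up to 1 RNA count and 41 with at least 10 RNA counts expected at an equal share. Counts that changed little are left out below, so a count not given need not be unchanged. With a 3-fold size, fewer members were also higher in each comparison with Col-0. In nrpd1-3 against Col-0, the 25 higher and 2 lower became 45 and 1 with library totals, 67 and 11 with the minimum of 50 and 4 higher with 200, and 1 lower with a 3-fold size. The median of 0.77 became 1.24 with library totals. In nrpe1-11 against Col-0, the 26 higher and 6 lower became 51 and 1 with library totals, 58 and 21 with the minimum of 50, 3 and 2 with 200, and 2 lower with a 3-fold size. The median of 0.67 became 1.36 with library totals and 0.19 with the minimum of 200. In nrpe1-11 against nrpd1-3, the 1 higher and 3 lower became 4 higher with library totals, 10 and 31 with the minimum of 50, 0 and 0 with 200, and 1 lower with a 3-fold size. The median of −0.05 became 0.15 with library totals and −0.18 with the minimum of 200.

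The remaining alternatives were chosen after seeing the data. Leaving RNA of Col-0 out of the rule gave 45 higher and 17 lower in nrpd1-3 (median 0.24), 39 higher and 32 lower in nrpe1-11 (median 0.19), and 3 higher and 22 lower between the mutants (−0.17). Leaving out RNA of the mutants gave 179 and 9 in nrpd1-3, 198 and 23 in nrpe1-11, and 19 and 21 between the mutants (0.0364). With the NRO minimum set on Col-0 alone there were 0 higher and 7 lower in nrpd1-3 (−0.33), 0 and 10 in nrpe1-11 (−0.53), and 0 higher between the mutants (−0.23). With libraries weighted equally, 0 were higher between the mutants. In the order given, these 4 sets held 188, 592, 29 and 62 loci. For the other minimums and the changed sets, shares over all loci are those of TMM scaling in the report. Those shares do not apply to library totals or to a 3-fold size. For library totals, the report gives the shares of both comparisons with Col-0. In nrpe1-11 against nrpd1-3, library totals gave 965 of all 16083 loci higher and 471 lower. No share over all loci is given for the 3-fold size. Counts from sets of different size should be read with the size of each set. Causes were not tested beyond the changed sets. Over the named loci, 713 values kept their call, 17 gained one, 26 lost it and 0 reversed. Depth limits Col-0 most, where 48 members had 10 or fewer NRO counts.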
